A study of Homo sapiens with 4 samples.

Results

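miR-124 is a small RNA best known from neurons, where it is among the most abundant miRNAs. The mRNA levels that followed delivery of a miR-124 mimic into 293T cells, a line derived from human embryonic kidney, were set against those that followed a control RNA, across all genes with an FPKM (fragments scaled to gene length in kilobases and to library size) of at least 1 in either library. These were 10266 of the 58243 genes listed, and 6587 of them were protein-coding. Ratios were taken for the 9582 genes above 0 in both libraries, 6586 of them protein-coding.

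RNA-seq was done on 4 libraries of 293T cells. One received a control RNA and the others received a mimic of miR-1, miR-122, or miR-124, and RNA was taken 48 h after transfection by the labels, while the study's methods give a shorter time. The groups share the cell line, and every library, the control included, came from cells given a synthetic RNA. Each condition has 1 library, so no difference here has a replicate check, and no p-value was calculated. The miR-1 library (a muscle miRNA) and the miR-122 library (a liver miRNA) served to see whether a change was particular to the miR-124 library. The reads behind the FPKM values could be recovered, and the library sizes behind the scaling ranged from 5887055 to 9452232 reads. Where a ratio has an interval, it is the 95% Clopper-Pearson interval for the reads of the 2 libraries. It covers counting error only and compares libraries, not conditions. For the cell line, VIM, KRT8, and KRT18 (intermediate filament genes that 293T cells express) were read 3516, 9906, and 2808 times in the miR-124 library, and 2 of 20 hepatocyte and muscle markers reached an FPKM of 1.

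A miRNA guides an Argonaute protein to mRNAs whose 3′ UTRs pair with its seed, bases 2 to 8, and the mRNA is then translated less and degraded sooner. miR-124 is known for lowering many mRNAs of non-neuronal cells, among them PTBP1, a splicing repressor that holds back neuronal exons, CTDSP1, a phosphatase that works with the repressor REST, and LAMC1 and ITGB1, which tie cells to the basal lamina. The best seed match is the 8mer GTGCCTTA, of which 7 letters pair with the seed and the last is an A. It was searched on the sense strand only. It was present in the longest annotated 3′ UTR of 2.98% of 19028 protein-coding genes. To show what such sites look like in genes that were lower and in genes that were not, 30 bases around the first 8mer of 10 genes are given 5′ to 3′ in the sense of the mRNA, with the 8mer in capitals. Each was read from GENCODE release 44 transcripts and is identical to the GRCh38 genome.

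FKBP14: ggttgggcatgGTGCCTTAtgcctataatc
CD164: tataaagaacaGTGCCTTAgaagacagtga
ITPRID2: cttttggaaatGTGCCTTAtgttaaacact
HEATR1: tgttacttttgGTGCCTTAatacacctact
IQGAP1: atatcttaagaGTGCCTTAttaaagtatag
VAMP3: aacaacaggctGTGCCTTAttttgataatt
PTBP1: ttggcttccttGTGCCTTAaaaaacctgcc
RELA: cctcttctcaaGTGCCTTAatagtagggta
SPHK1: tgggccgcgctGTGCCTTAgtgtctacttg
MYH9: atataataaaaGTGCCTTAgcatgtgttgc

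All 10 lie in annotated 3′ UTRs of protein-coding genes. They are at chr7:30011311-30011340 (FKBP14), chr6:109368182-109368211 (CD164), chr1:236550794-236550823 (HEATR1), chr11:65653729-65653758 (RELA), and chr22:36281354-36281383 (MYH9) on the minus strand. ITPRID2 (chr2:181930198-181930227), IQGAP1 (chr15:90500972-90501001), VAMP3 (chr1:7780071-7780100), PTBP1 (chr19:811144-811173), and SPHK1 (chr17:76387591-76387620) are on the plus strand. The share of A and T in the 22 bases around the 8mer ranged from 36.4% in SPHK1 to 81.8% in IQGAP1.

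Few protein-coding mRNAs were far from their control level in the miR-124 library. Of the 6586 tested, 66 fell by at least 1.5-fold (1.00%) and 192 rose by as much (2.92%), and the median log2 ratio was 0.03. The middle 90% of the log2 ratios lay between -0.40 and 0.49. Among the 6322 genes with at least 100 reads in the 2 libraries together, 45 fell and 120 rose. No such gene fell by 2-fold, and 5 rose by as much, PRR36, SP5, RHBDL1, and LMTK3 among them. Counted over all kinds of genes, 567 of 9582 fell (5.92%) and 659 rose (6.88%), and 501 of the former and 467 of the latter were not protein-coding, a class with a median of 52 reads in the 2 libraries together.

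A stricter call asked for a difference from the control RNA and from both other mimics, and by its rule it can only count fewer genes. By 1.5-fold against each of the 3 other libraries, 7 protein-coding genes were lower (0.106%) and 37 were higher (0.562%). Over all kinds of genes these numbers were 121 (1.26%) and 139 (1.45%). With the counting interval in place of a fixed fold, a call chosen after seeing the data, 1233 of 6582 protein-coding genes were below their control level (18.7%) and 1691 above it (25.7%). Below or above all 3 other libraries by that rule were 245 genes (3.72%) and 531 genes (8.07%). The interval leaves out the spread between transfections, which was not measured.

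**Figure D1:**
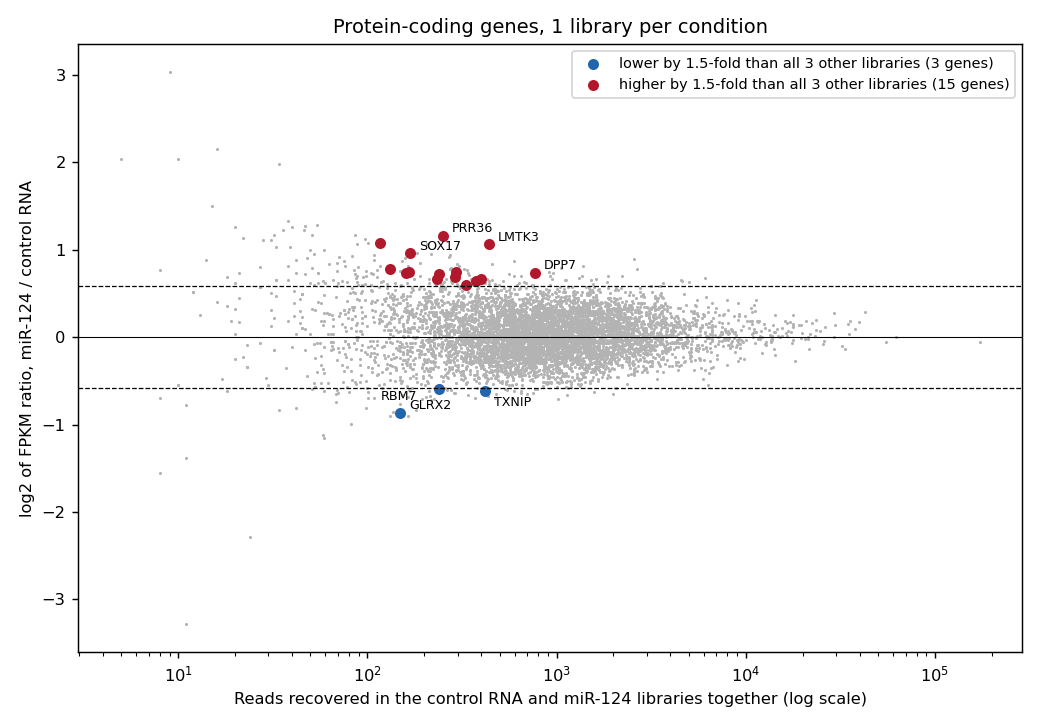
Log2 of the FPKM ratio of the miR-124 library to the control RNA library against the reads of both libraries (log scale) for protein-coding genes. Each point is a gene and dashed lines mark 1.5-fold. The 3 blue genes were lower and the 15 red genes higher by 1.5-fold than each of the 3 other libraries, with at least 100 reads.

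The genes that fell in the miR-124 library alone were few. With at least 100 reads, 3 protein-coding genes were lower by 1.5-fold than each other library. GLRX2, a mitochondrial glutaredoxin that reduces protein disulfides, had an FPKM of 1.52 after control RNA, 1.58 after miR-1, 1.29 after miR-122, and 0.834 after miR-124. Its ratio of 0.549 to the control had an interval of 0.384 to 0.777, but its reads may be off by a whole factor. TXNIP, which binds and inhibits thioredoxin and restrains glucose uptake, was at 9.31, 13.7, 9.46, and 6.05 in the same order. The miR-124 library was thus the lowest for TXNIP and the miR-1 library the highest, and the ratio to control was 0.650 (0.531 to 0.794). RBM7, an RNA-binding subunit of a nuclear complex that feeds transcripts to the exosome, was at 1.54, 1.76, 1.83, and 1.03, with a ratio of 0.664 (0.507 to 0.867). GLRX2 and TXNIP held no seed match in the 3′ UTR, and RBM7 held a 7-letter match.

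The other 4 genes lower than each other library had fewer reads. They were ZNF416, a zinc finger protein, with a ratio of 0.569 to control, the Notch effector HES5 with 0.461, the stress-induced chaperone HSPA6 with 0.205, and the actin-like gene ACTBL2 with 0.659. HSPA6 was read 20 times with control RNA and 4 times with miR-124. The intervals reached 0.874 for ZNF416 and 0.823 for HES5, and that of ACTBL2 ran from 0.391 to 1.09.

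Better-read genes with an interval below each of the 3 other libraries followed, chosen after their values were seen. C1GALT1C1, a chaperone for the enzyme that extends O-linked glycans, fell from 4.23 with control RNA to 2.59 with miR-124 and was at 4.42 after miR-1 and 3.86 after miR-122. IFNAR1, a subunit of the type I interferon receptor, fell to 0.616 of control (0.509 to 0.745), from an FPKM of 1.26 to 0.778, with 1.13 and 1.05 in the other mimic libraries. DYNLT3, a dynein light chain, fell from 3.58 to 2.26, and its level was 3.36 after miR-1 and 3.11 after miR-122. GUF1, a mitochondrial translation factor, fell to 0.626 of control (0.513 to 0.763). ZCCHC10, a zinc knuckle protein, fell to 0.619 of control (0.498 to 0.768). In each of these genes the miR-124 library was the lowest of the 4. SESN3, a sestrin that restrains mTORC1, was at 0.695 of control (0.612 to 0.788) and did not pass 1.5-fold.

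At the median, the 66 genes that fell were also low with the other mimics. Their median log2 ratio was -0.66 after miR-124, -0.51 after miR-1, and -0.41 after miR-122, all against the same control library, which all 3 ratios share. UHMK1, a kinase that phosphorylates splicing factors, had an FPKM of 3.29 after control RNA, 1.18 after miR-1, 2.50 after miR-122, and 2.08 after miR-124. SMG1, the kinase that starts nonsense-mediated decay, was at 1.53, 0.967, 0.862, and 0.974. HIF1A, the oxygen-regulated transcription factor, was at 1.23, 0.871, 1.10, and 0.783, so that miR-124 gave its lowest value by a small margin over miR-1. TASOR2, related to a subunit of the HUSH silencing complex, fell to 0.612 of control (0.538 to 0.696) and had its lowest FPKM, 0.745, with miR-124. These 4 genes were chosen after their values were seen.

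More genes rose in the miR-124 library alone. With at least 100 reads, 15 protein-coding genes were higher by 1.5-fold than each of the 3 other libraries. LMTK3, a kinase expressed in the brain, rose from an FPKM of 0.784 after control RNA to 1.63 after miR-124, against 0.978 after miR-1 and 1.03 after miR-122. Its ratio was 2.08 (1.70 to 2.56). ITPKA, a kinase of inositol trisphosphate found in dendritic spines, rose from 1.37 to 2.25, and was at 1.41 and 1.49 in the other mimic libraries. PRR7, a transmembrane adaptor of the postsynaptic density, rose from 1.73 to 2.78, and PLPPR3, a phospholipid phosphatase-related protein of axons, from 2.35 to 3.68. The levels of PRR7 were 1.82 and 1.79 in the other 2 mimic libraries, and those of PLPPR3 2.21 and 2.40, close to control.

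Among the 15 were also the transcription factors SOX17, SOX8, and FOXD4. SOX17, an endoderm factor, rose from 2.96 with control RNA to 5.76 with miR-124, with 2.97 for miR-1 and 3.74 for miR-122. SOX8, a neural crest and Sertoli cell factor, rose from 4.55 to 7.21, with 4.69 and 3.38. FOXD4, a forkhead factor, rose from 3.75 to 6.43, with 2.79 and 3.96, but near-identical copies of this gene exist, so its reads may be split among them. A further 7 genes were PRR36, CDHR5, FAM181B, VPS37D, CRIP2, DPP7, and TMEM121, with ratios to control between 1.51 for TMEM121 and 2.23 for PRR36. DPP7, a lysosomal and secreted dipeptidyl peptidase, had the most recovered reads of the 15, with 293 at control and 475 with miR-124. The reads of DPP7 may be off by a whole factor. Its FPKM was 9.54, 10.4, 7.66, and 15.9 in the order control, miR-1, miR-122, miR-124. CDHR5, a protocadherin-like protein of the intestinal brush border, was at 0.968, 0.745, 0.857, and 1.61. VPS37D is a subunit of the ESCRT-I sorting complex, and its FPKM was 2.22 with control RNA and 3.72 with miR-124.

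**Figure D2:**
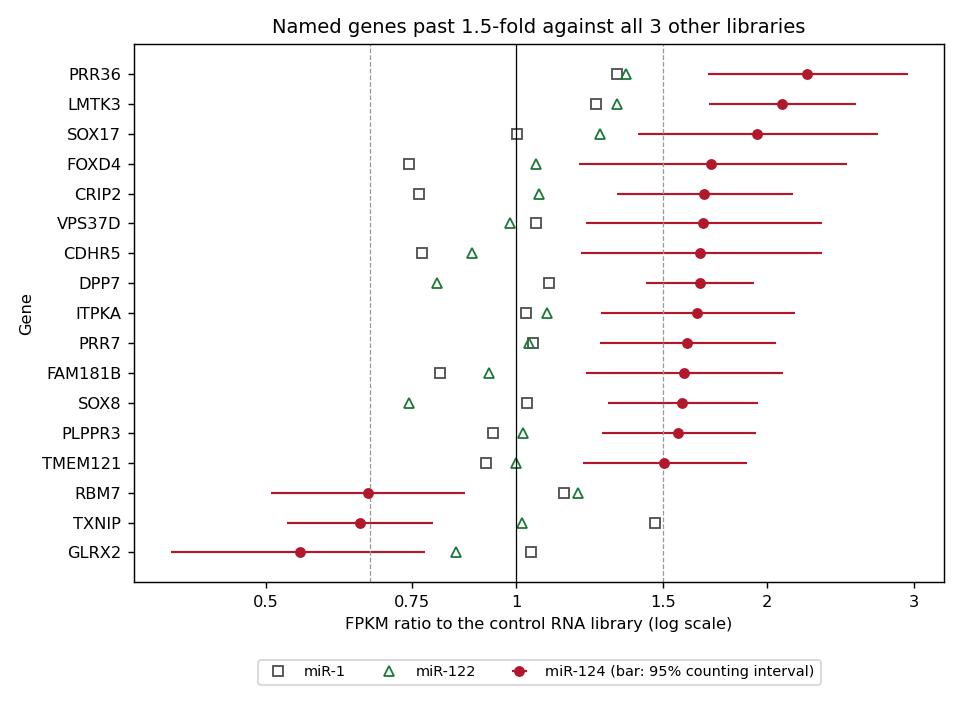
FPKM ratio to the control RNA library (log scale) for 14 of the genes higher and the 3 genes lower by 1.5-fold than each other library, with miR-124 as filled circles (bar, 95% counting interval), miR-1 as squares, and miR-122 as triangles. The rule that chose these genes sets the miR-124 circles apart from both other mimics, and no interval reaches 1.

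Several genes that rose against control RNA had many more recovered reads, and these were chosen after their values were seen. The reads of SEMA6B and POU3F3 among them may be off by a whole factor. FBRSL1, related to the Polycomb partner fibrosin, was read 998 times with control RNA and 1669 times with miR-124, and its FPKM was 1.57, 1.81, 1.78, and 2.70 in the order control, miR-1, miR-122, miR-124. SEMA6B, a semaphorin that repels growing axons, was at 8.06, 11, 11, and 14.9, so that all 3 mimics were above the control and miR-124 the furthest. POU3F3, a POU-domain factor of the forebrain and kidney, was at 17.5, 15.3, 19.3, and 28.4, with a ratio of 1.62 (1.42 to 1.86). MAP3K10, a mixed-lineage kinase of the JNK pathway, was at 3.28, 3.37, 3.51, and 5.22. AMH, the anti-Müllerian hormone gene, rose to 1.62 of control (1.49 to 1.77). JUND, an AP-1 subunit, was at 119, 105, 141, and 183, and HES4, a Notch-responsive repressor, at 247, 298, 292, and 384. In all of these the miR-124 library had the highest value of the 4.

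The listed targets of miR-124 were near their control level at the median, and the value depended on which were included. Of 50 genes chosen as known targets, 34 reached an FPKM of 1. Of these, 1 fell by 1.5-fold and 0 rose, against 1.00% and 2.92% of all protein-coding genes, and their median log2 ratio was -0.03 against 0.03 over all protein-coding genes tested. The one that fell was SOX9, a chondrocyte and neural stem cell factor, whose FPKM was 3.94 after control RNA, 1.78 after miR-1, 2.39 after miR-122, and 2.41 after miR-124. It was therefore low with every mimic, and lowest with miR-1. By the counting interval 13 of the 34 were below control and 8 above it, against 18.7% and 25.7% of protein-coding genes, and 2 were below all 3 other libraries. Of the 34, 19 were below control after miR-124, 23 after miR-1, and 16 after miR-122, and 9 were lower with miR-124 than in each other library. The 16 listed targets below an FPKM of 1 had reads too, and 13 of them were below control, 7 with an interval below 1, and 0 past 1.5-fold. Genes below that FPKM were low in general. Of 3477 such protein-coding genes with at least 200 reads, 147 fell by 1.5-fold and 12 rose, with a median log2 ratio of -0.18. ROCK1, a kinase of the actomyosin cytoskeleton, had the lowest ratio of the 16, 0.682 (0.573 to 0.810), with 335 reads after control RNA and 223 after miR-124. Its ratio to control was 0.730 after miR-1 and 0.897 after miR-122. MAPK14, the p38 alpha kinase, was at 0.738 (0.641 to 0.849), and at 0.830 after miR-1 and 0.852 after miR-122. With at least 200 reads in place of the FPKM filter the median of the listed targets was -0.15, and with no filter -0.13. Over all protein-coding genes these medians were -0.05 and -0.04.

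PTBP1, the target that links miR-124 to neuronal splicing, was at 38.1 after control RNA, 25.8 after miR-1, 38.2 after miR-122, and 40.2 after miR-124. Its ratio of miR-124 to control was 1.05, with an interval of 1.01 to 1.10, so that the lowest value belonged to miR-1. CTDSP1 was at 9.92, 11, 11.9, and 10.7 in the same order, and all 3 mimics were above the control. CD164, a sialomucin with 2 8mers in its 3′ UTR, was at 8.51, 8.47, 10.9, and 6.63. It was the listed target most clearly lowest with miR-124, at a ratio of 0.778 (0.704 to 0.861). With the trend of 3′ UTR GC content and length described below subtracted, the ratio of CD164 was 0.927 and that of PTBP1 0.982. SYPL1, a synaptophysin-like membrane protein, was at 2.50, 2.45, 2.33, and 1.92, also lowest with miR-124. VAMP3, a vesicle SNARE, was at 7.95, 8.41, 7.09, and 6.77.

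Targets of adhesion and the cytoskeleton went both ways, and none passed 1.5-fold. MYH9, a non-muscle myosin chain, was at 1.11 of control (1.06 to 1.17) and the intermediate filament gene VIM at 1.00, and of 18 laminin, integrin, and adhesion genes tested 8 were below control and 10 above it, with a median of 0.06. The laminin gamma chain LAMC1 had a ratio of 0.760 (0.712 to 0.812), and its FPKM was 2.58, 2.15, 1.93, and 1.97 in the order control, miR-1, miR-122, miR-124. ITGB1, the integrin beta 1 chain, was at 2.39, 1.89, 2.26, and 1.87. The scaffold IQGAP1 was at 1.35, 1.10, 0.776, and 1.02, lowest with miR-122. LAMC1 was lower still with miR-122, and ITGB1 was nearly as low with miR-1. RELA, an NF-kB subunit, and ACTL6A, a chromatin remodelling subunit replaced in neurons, were close to control, with ratios of 1.01 and 0.988. Higher than control were EGR1, an immediate early factor that was equally high with the other mimics, at 1.48 (1.02 to 2.15) and DLX2, a forebrain homeobox factor, at 1.37 (1.14 to 1.66). Of the 10 listed targets with an 8mer, 5 were below control and 5 above it.

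Across the transcriptome, genes with a miR-124 seed match were slightly lower than genes without one, and about as much with the other mimics. The 195 genes with an 8mer had a median log2 ratio of -0.09 and the 3491 without any 6-letter match one of 0.08, a difference of -0.17. The same genes differed by -0.14 in the miR-1 library and by -0.10 in the miR-122 library, whose miRNAs have other seeds. With the mean of those 2 libraries as the reference in place of control RNA, the difference was -0.02. For the 7mer-m8 (GTGCCTT, 787 genes) the difference was -0.11 with miR-124 and -0.11 with miR-1, and for the 7mer-A1 (TGCCTTA, 527 genes) -0.16 and -0.12. Of the 195 genes with an 8mer, 4 fell by 1.5-fold (2.05%) and 1 rose (0.513%), against 0.831% and 4.33% of genes without a match and 1.00% and 2.92% of all protein-coding genes. Those lower were RTL5, THAP2, TRIM45, and ZKSCAN8, and miR-124 was the lowest library for 1 of them, TRIM45, with an FPKM of 0.872 against 0.909 with miR-1.

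The 8mer genes lowest in the miR-124 library alone differed modestly. FKBP14, a prolyl isomerase of the endoplasmic reticulum, had an FPKM of 1.70 after control RNA, 1.89 after miR-1, 1.91 after miR-122, and 1.30 after miR-124. Its ratio to control was 0.764 (0.607 to 0.960). ITPRID2, a membrane-associated protein that binds the inositol trisphosphate receptor, was at 1.36, 1.16, 1.13, and 0.926, with a ratio of 0.682 (0.575 to 0.807). HEATR1, a factor of ribosomal RNA transcription, was at 1.96, 1.76, 1.58, and 1.32, and its ratio was 0.673 (0.598 to 0.756). With CD164, these were the 4 8mer genes whose miR-124 value lay furthest below the nearest other library, and none passed 1.5-fold. FECH, the last enzyme of heme synthesis, DPH3, MED20, and the kinetochore protein ZWINT followed, with ratios of 0.852, 0.862, 0.807, and 0.874. Of 193 8mer genes with at least 100 reads, 51 (26.4%) were lower with miR-124 than in every other library, against 23.9% of all such protein-coding genes.

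The base composition of the 3′ UTR moved with the ratio more than the seed match did. In 5 groups of equal size by GC content, the median log2 ratio with miR-124 ran from -0.18 through -0.11, 0.02, and 0.13 to 0.28, for median GC contents of 33.5, 39.8, 46.9, 53.5, and 60.7%. In the lowest group 46.0% of genes had an interval below control and 3.20% one above it, and in the highest group these shares were 0.305% and 65.9%. The trend had the same direction with the other mimics, from -0.06 to 0.08 with miR-1 and from -0.08 to 0.14 with miR-122. A cubic trend with 3′ UTR GC content and length took 39.1% of the variance of the log2 ratios after miR-124, 8.77% after miR-1, and 13.7% after miR-122. The part of this trend in the results here was not tested.

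The seed classes differed in composition as well, since 8mer genes had a median 3′ UTR of 2721 bases and genes without a match one of 660 bases. With the trend subtracted, the difference between the 8mer genes and those without a match was -0.04. Within the GC groups, the median of 8mer genes was -0.29 in the lowest group (39 genes), where genes without a match had -0.13. The same 2 medians were -0.23 and 0.00 with miR-1. In the highest GC group (32 genes with an 8mer) the medians with miR-124 were 0.25 and 0.29. The listed targets below control had a median 3′ UTR GC content of 37%, and those above it 55.1%. With the trend subtracted, the median log2 ratio of the listed targets was -0.06. The ratio to control came to 0.848 for LAMC1 and 1.05 for MYH9, nearer to 1. It came to 0.867 for SPHK1 and 1.59 for EGR1, further from 1.

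**Figure D3:**
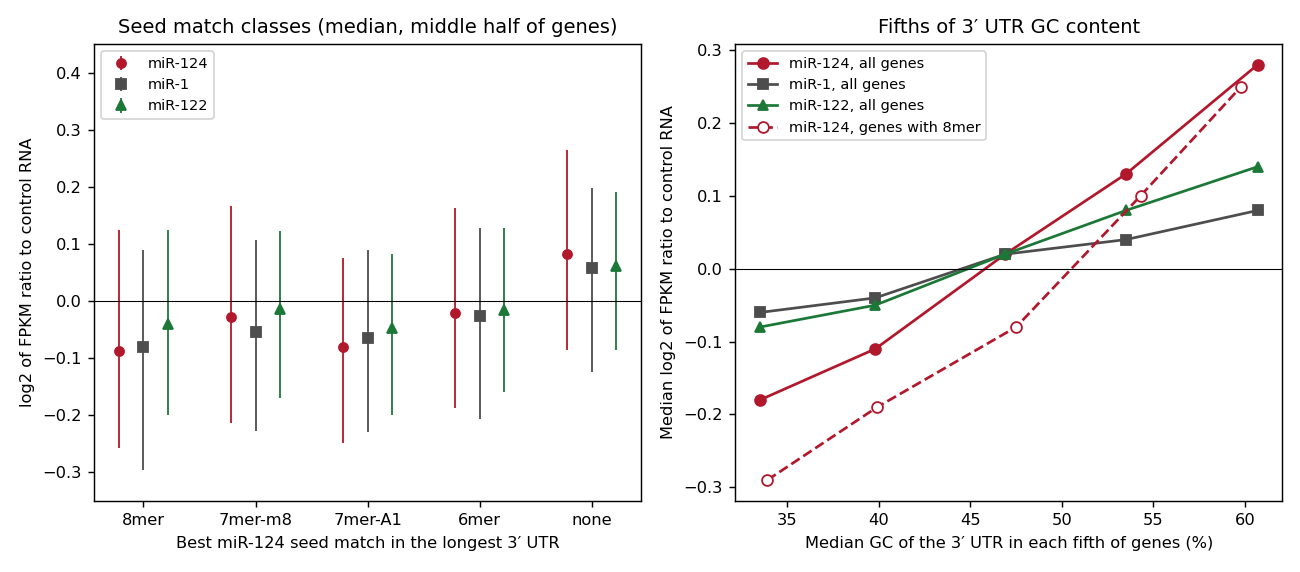
Left, median (symbol) and middle 50% (bar) of the log2 FPKM ratio to control RNA by the best miR-124 seed match in the longest 3′ UTR, for the miR-124, miR-1, and miR-122 libraries. Right, median log2 ratio in 5 groups of genes of equal size by 3′ UTR GC content, with 8mer genes for miR-124 as open circles. The 8mer median is -0.09 with miR-124 and -0.08 with miR-1, and the GC trend is steepest for miR-124.

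Gene lists and families were next compared by their median, beside the median of 0.03 over all genes tested. Of 62 with at least 5 genes tested, 44 had a median log2 ratio within 0.1 of 0 and 5 were at least 0.2 from it. The SOX, FOX, and collagen families were above, and the nucleoporins and the reporter-construct genes were below. The latter, 15 tested of 26, had a median of -0.21, or -0.03 with the trend of 3′ UTR GC content and length subtracted, and 1 of them fell. The share of genes called among each list's members is to be read against 1.00% lower and 2.92% higher.

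The SOX factors, which bind DNA through an HMG box and set cell identity in embryos, had the highest median, 0.42 over 11 genes. SOX17, SOX8, SOX15, and SOX21 rose and SOX9 fell, but SOX15 and SOX21 were read 20 and 19 times in the miR-124 library, and the interval of SOX21 ran from 0.932 to 5.43. SOX12 was at 37 after control RNA, 39.6 after miR-1, 42.6 after miR-122, and 54.7 after miR-124, a ratio of 1.48 (1.37 to 1.59). SOX2, SOX4, and SOX11, the SOX genes of neural progenitors, had ratios of 1.02, 0.931, and 0.937, all with intervals that include 1. The median of the family was 0.00 after miR-1 and 0.11 after miR-122, and it was 0.27 with the GC and length trend subtracted. It depended on the filter, at 0.07 with at least 200 reads in place of the FPKM filter and 0.19 with no filter.

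The FOX factors, winged-helix proteins that include several regulators of kidney and brain development, had a median of 0.28 over 23 genes, of which 20 were above control. FOXL2, FOXD4, and FOXQ1 rose and none fell. FOXD1, a factor of the kidney stroma, was at 19, 14.9, 20.6, and 27.2 in the order control, miR-1, miR-122, miR-124, and its ratio was 1.43 (1.27 to 1.62). FOXF2 was at 6.50, 5.69, 6.72, and 8.67. FOXL2, at 1.29, 2.25, 2.74, and 2.33, was high with every mimic. The median of the family was -0.24 after miR-1 and 0.08 after miR-122, and it was 0.27 with the trend subtracted. It was 0.06 with at least 200 reads in place of the FPKM filter and 0.13 with no filter. Some genes of these 2 families have 1 exon. Over all 269 protein-coding genes with 1 exon, the median was 0.07 with miR-124 and -0.08 with miR-1, and with the trend subtracted it was 0.14 with miR-124 against 0.02 for the 6314 genes with more exons.

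Other lists above 0 had few genes past 1.5-fold. All 5 collagens tested were above control, from 1.10 for COL1A1 (0.961 to 1.27) to 1.48 for COL6A2 (1.35 to 1.62), with a median of 0.35. COL6A2 was also high with miR-122, at 4.49 against 3.32 with control RNA and 4.92 with miR-124, and with the trend subtracted the collagen median was 0.16. The collagen median was 0.09 with at least 200 reads in place of the FPKM filter and 0.02 with no filter, so it too depended on the filter. The neuronal genes had a median of 0.18 over 13 of 57 (0.09 with at least 200 reads, 0.06 with no filter), 0 were higher by 1.5-fold than all 3 other libraries, and VAMP2, a synaptic vesicle SNARE, rose to 1.59 of control (1.16 to 2.18), although its FPKM was 3.52 with miR-122 and 3.76 with miR-124. NEFL and STMN1, a neurofilament chain and a tubulin-binding protein, were at 0.943 and 0.945. Among 29 immediate early genes, whose mRNAs are made within minutes of a stimulus, JUND and KLF2 rose, and the median was 0.13. The orphan receptor NR4A1 was at 1.49 (1.28 to 1.73). Of 17 KLF and SP factors, KLF2, SP5, and SP8 rose and their median was -0.03. SP5, a target of Wnt signalling, went from 1.83 with control RNA to 3.86 with miR-124, with 2.83 and 2.68 in between for miR-1 and miR-122.

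The nucleoporins, which build the nuclear pore, had the lowest median of the families, -0.25 over 21 genes. None passed 1.5-fold, 19 were below control, and 14 had an interval below 1, against 18.7% of protein-coding genes. NUP58, a protein of the central channel, was at 0.707 (0.627 to 0.797), with an FPKM of 2.10, 2.0, 1.57, and 1.49 in the order control, miR-1, miR-122, miR-124. NUP160, a scaffold subunit, was at 0.778 (0.703 to 0.860). NUP62, of the central channel too, was at 1.15 of control. The median 3′ UTR GC content of the family was 37.9% against 46.9% over all protein-coding genes, and with the trend subtracted its median was -0.10. It was -0.08 after miR-1 and -0.12 after miR-122, and -0.14 for miR-124 against the mean of those 2 libraries.

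Mitotic genes were lower by similar amounts. Of 44 tested, none passed 1.5-fold, 36 were below control, and 24 had an interval below 1 (against 18.7% of protein-coding genes), with a median of -0.19. Their median was -0.03 after miR-1 and -0.13 after miR-122, and -0.10 for miR-124 against the mean of both. The spindle checkpoint kinases BUB1B and TTK had ratios of 0.693 (0.604 to 0.794) and 0.70 (0.587 to 0.834). TTK was at 1.26, 1.05, 1.09, and 0.881, lowest with miR-124. BUB1B was at 1.32, 1.05, 0.989, and 0.913 in the order control, miR-1, miR-122, miR-124, also lowest with miR-124. CDC20 and UBE2C, which act with the anaphase-promoting complex, were both at 1.16 of control. The list had a median 3′ UTR GC content of 35.5% and a median of -0.11 with the trend subtracted. Medians of -0.20 for 22 ZBTB zinc finger genes, -0.18 for 12 centrosomal CEP genes, -0.15 for 8 high mobility group genes, and -0.13 for 37 DEAD and DEAH helicases came to between -0.05 and -0.01 after the subtraction. Among them CEP19 fell, to 0.589 of control (0.413 to 0.831).

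Housekeeping systems stayed near the overall median. The 82 cytosolic ribosomal protein genes had a median of 0.03 with miR-124 and 0.19 with miR-1, and none passed 1.5-fold. The medians were 0.06 for 66 mitochondrial ribosomal genes, 0.10 for 29 subunits of respiratory complex I, 0.02 for 34 proteasome genes, -0.07 for 42 translation initiation factors, and 0.03 for 18 aminoacyl tRNA synthetases. For 35 DNA replication genes the median was 0.00, although the thymidine kinase TK1 and the licensing factor CDT1 were at 1.38 and 1.40 of control. Cholesterol synthesis genes had a median of -0.03 over 23, with HMGCS1 at 0.755 and its activator SREBF1 at 1.47. The 38 SR and hnRNP splicing factors had a median of -0.06. The miRNA effectors and processing factors had one of -0.11 over 23, with AGO2, the Argonaute that cleaves, at 0.774 with miR-124 and an FPKM of 1.04, 0.716, 0.706, and 0.802 in the order control, miR-1, miR-122, miR-124.

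Stress and signalling lists also stayed near 0. Of 13 interferon and double-stranded RNA response genes above the threshold, IFIT5 fell, from 4.17 with control RNA to 2.68 with miR-124, and none rose. Its levels with miR-1 and miR-122 were 3.41 and 3.79. IRF7 was at 1.48 (1.14 to 1.92). The medians were -0.09 for 29 heat shock chaperones, 0.07 for 33 genes of the ATF4 and unfolded protein response, -0.08 for 20 p53 targets, and 0.07 for 27 genes of the Notch, Wnt, and Hedgehog pathways, of which HES4 rose. Of 104 solute carriers, SLC5A3, a sodium-coupled inositol transporter, fell and 3 rose, among them SLC52A2, a riboflavin transporter read 2780 times with miR-124, at 1.55 (1.47 to 1.65). Of 147 ZNF genes, 4 fell and 4 rose. Of 20 replication-dependent histone genes, 4 fell and 4 rose, and 5 had at least 100 reads.

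Genes higher and lower than all 3 other libraries by the counting interval differed in other features. The 245 lower genes had a median 3′ UTR GC content of 36.3% and a median 3′ UTR of 1990 bases, and the 531 higher genes one of 59.2% and of 793 bases. The promoters, taken as 300 bases around the start in RefSeq (GRCh38.p14) and present for 5404 of the 6586 genes, had a median GC content of 63.7% and 70.3% in these 2 groups and 66.0% over all protein-coding genes. Genes with 1 exon were 1.63% of the lower and 4.71% of the higher group, against 4.08% overall. The 1.5-fold call against control gave the reverse order, 21.2% of the 66 lower genes and 13% of the 192 higher genes. Both of these shares were above the overall one.

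The length behind the FPKM includes introns, and well-read genes outside the FPKM filter had a longer median span than those inside it. Among those outside, more fell than rose. There were 3477 protein-coding genes with at least 200 reads and an FPKM below 1 in both libraries, with a median span of 96.7 kb against 18.2 kb for the 5974 such genes inside the filter. Of the genes outside the filter, 147 fell by 1.5-fold and 12 rose, and of those inside the filter, 31 fell and 89 rose. The genes outside had a median log2 ratio of -0.18 with miR-124 and of -0.16 and -0.11 with the other mimics. Their median 3′ UTR GC content was 39% against 46.8%. Lower with miR-124 than in each other library by 1.5-fold were GSTCD, LPL, and CYB5R4, and higher were SH2B2, GRIN1, and MAST1, all named after their values were seen. LPL, the lipoprotein lipase, had an FPKM of 0.295 after control RNA, 0.287 after miR-1, 0.334 after miR-122, and 0.189 after miR-124. GRIN1, the obligatory subunit of NMDA receptors, was at 0.522, 0.421, 0.392, and 0.835.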

How the data were processed

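RNA was measured in 4 libraries. Per the submitters' processing notes the authors used CASAVA 1.8 and HISAT2 2.0.0 with GRCh38, and they deposited 1 FPKM value per gene and library. The counting program and annotation are not given in the sources used here. Values of a gene were whole multiples of 1 read for a length found in 99.4% of 32358 genes above 0, and reads were recovered with it. That length was mostly at or within 10% of the gene's start-to-end distance in GENCODE release 44. For 456 protein-coding genes it was not, and their reads may be off by a whole factor. Those described include GLRX2, DPP7, CDT1, SOX4, SEMA6B, POU3F3, ITGB1, and CTDSP1. FPKM levels are not comparable between genes.

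Ratios took no pseudocount. The genes named were protein-coding, outside the reporter targets drawn by the study, with at least 100 reads and 1.5-fold from each other library (up to 15 in a direction), the 8 lowest 8mer genes, the 2 lowest and 2 highest of each list described, and listed targets past 1.5-fold. Some genes that met these rules are not reported here. Any other gene was chosen after its values were seen, as were the interval call, the restriction to protein-coding genes, the GC, length, and exon groups, and the genes below the filter. Members, gene lists, and rules were chosen with earlier results of these data known. Alternatives were other pseudocounts, filters, references, and 3′ UTRs, centring, and subtraction of a cubic trend with 3′ UTR GC content and log length. The steps were tested on simulated data. Python 3.11.15, pandas 2.3.3, and scipy 1.17.1 were used.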

Additional observations from a re-analysis of the deposited data

How the results depend on the processing

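No paired analysis was possible because there is only 1 library of each kind, and for the same reason no replicate could be left out. Counts are given in the order lower by 1.5-fold, higher, lower than all 3 other libraries, higher than all 3, first over all genes and then over protein-coding genes, followed by the difference in median log2 ratio of 8mer genes. They were 567, 659, 121, and 139, then 66, 192, 7, and 37, and -0.17 as reported. With a pseudocount of 1 they were 294, 323, 39, and 45, then 4, 61, 0, and 3, and -0.13. With an FPKM of at least 5 they were 96, 176, 19, and 24, then 3, 60, 1, and 6, and -0.05. With no filter they were 2569, 2346, 553, and 492, then 988, 949, 173, and 199, and -0.21. With at least 200 reads in place of the FPKM filter they were 190, 114, 6, and 17, then 178, 101, 5, and 13, and -0.20. With the trend of 3′ UTR GC content and length subtracted, which can be done for protein-coding genes alone, they were 38, 100, 5, and 19, and -0.04. A pseudocount of 0.1 left 4 protein-coding genes lower than all 3.

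The mean of miR-1 and miR-122 as the reference gave 372 lower genes, 35 lower and 112 higher protein-coding genes, and a difference of -0.02. Against it the medians of the ZBTB genes (0.07) and of the reporter-construct genes (0.01) and the log2 ratio of SOX9 (0.21) changed sign. The share of higher among called protein-coding genes was 74.4% as reported, 49.0% without a filter, 36.2% with 200 reads, 93.8% with a pseudocount of 1, and 95.2% at an FPKM of 5. Centring on the median moved none of these counts by 1.5 times, and the 3′ UTR of 1 representative transcript, tried for the 8mer difference alone, left it at -0.17. Of 62 list medians, 16 moved by more than their counting error with 200 reads, 14 without a filter, and 24 against the mean of the other mimics. Fewer lists had a value under 2 other settings. At an FPKM of 5, 28 moved and 27 did not, and with the trend subtracted 22 moved and 38 did not. Among alternative values for 49 named genes, 318 moved by less than the counting error, 24 by more, and SOX9 changed sign. A filter cannot alter a gene's own ratio. The 318 thus include 49 values without a filter, 38 with 200 reads, and 11 at an FPKM of 5 that could not move. Centring, with 49 more, shifted all genes by the same amount. The causes were not tested. Depth limits genes with few reads most, and with 1 library the spread between transfections is unknown.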

Other observations

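Genes that do not code for proteins made up 2996 of the 9582 tested, and 501 fell and 467 rose by 1.5-fold with miR-124. Of 1850 long non-coding RNAs (lncRNAs), 270 fell and 260 rose, against 5.92% and 6.88% of all genes tested. The lncRNAs had a median of 76 reads in the 2 libraries together, against 825 for protein-coding genes. With at least 100 reads, 27 of 797 lncRNAs fell and 39 rose, against 45 and 120 of 6322 protein-coding genes. Of these lncRNAs, 2 were lower and 3 higher by 1.5-fold than each of the 3 other libraries. Among the 6322 protein-coding genes, 3 were lower and 15 higher by that call. By the counting interval, 15 of the 797 lncRNAs were below and 33 above all 3 other libraries, against 244 and 520 of the 6322 protein-coding genes. The strand setting of the counting is not given, so an lncRNA that overlaps another gene cannot be told apart from it. PURPL, a p53-induced lncRNA, had an FPKM of 1.94 after control RNA, 1.94 after miR-1, 1.92 after miR-122, and 1.36 after miR-124, a ratio of 0.701 (0.586 to 0.837). PURPL was even across the other 3 libraries and lower with miR-124 without passing 1.5-fold, but its reads may be off by a whole factor. NEAT1, the scaffold of paraspeckles, was at 21.8, 23.9, 21.1, and 19.8, and SNHG1, a snoRNA host gene, at 0.829 of control. The lncRNAs named here were chosen after their values were seen.

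Of the 10266 genes at an FPKM of at least 1, 684 were listed at 0 in one of the 2 libraries, 369 with miR-124 and 315 with control RNA. None had more than 13 reads in the other library, and 1 was protein-coding.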
